A study of Mus musculus with 12 samples.

Results

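Toll-like receptors (TLRs) and the NF-kB pathway below them were examined as a set of 44 genes in the livers of alcohol-fed (AF) and pair-fed (PF) mice. The genes were chosen by symbol for their place in the pathway, from the receptors and the proteins that deliver lipopolysaccharide (LPS) to the NF-kB subunits and their inhibitors. All 44 were found among the 54232 gene IDs of the deposited table, and all 44 were among the 14168 genes with enough reads to be tested.

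Whole liver RNA of male C57BL6/J mice in the intragastric feeding model of alcohol-associated steatohepatitis was sequenced. Both groups were on high-fat feeding for 8 weeks, and the labels give an age of 8 weeks. The 7 AF livers came from mice given ethanol up to 27 g/kg/day through the gastric tube with a weekly binge of 5 g/kg, and the 5 PF livers came from mice given an isocaloric high-fat liquid diet. Per the study's methods, a Western diet or regular chow preceded the tube feeding, and livers were taken one day after the last binge. No label ties a library to a single mouse, so the p-values measure the spread between these samples.

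TLRs are pattern recognition receptors. Those on the cell surface read mainly bacterial lipids and proteins, and those in endosomes read nucleic acids. Through TIR domain adaptors such as MyD88 and the IRAK and TRAF proteins they activate the IkB kinase (IKK), which marks the inhibitors of NF-kB for degradation, and NF-kB then enters the nucleus. Gut-derived LPS reaching the liver and its recognition by CD14 and TLR4 on Kupffer cells, the resident liver macrophages, is a long-studied part of alcohol-associated liver disease.

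Depth was alike in the groups, with 24129900 to 28594027 reads on genes per PF library and 25099033 to 30578639 per AF library. A count of 0 allows up to 3 counts, or 0.0778 to 0.148 CPM depending on the library (CPM, reads of a gene as a share of the scaled library size). AF 6 lay nearest to the PF livers on the first principal component of all genes (60.1% of the variance), at -7.49 against -71.4 to -51.4 in PF and 20.9 to 82.2 in the other AF livers. PF 1 stood apart in neutrophil genes, with a summed level of 1164 CPM over 10 markers against 65.5 to 255 in the other PF livers. Without PF 1 the test called 16 of the 44 genes higher and 5 lower in AF, beside 2872 and 2326 of all genes. Without AF 6 it called 21 higher and 6 lower, beside 3574 and 2923 of all genes. With all livers these counts were 20 and 4 of the 44, and 3116 and 2519 of all genes. The hepatocyte markers were abundant in all libraries, as the label liver requires. Their summed level was 9.98e+04 to 1.41e+05 CPM in PF and 5.42e+04 to 1.05e+05 in AF.

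Genes of NF-kB inhibitors can themselves hold binding sites for NF-kB (kB sites) upstream. Of this feedback group, 3 promoters that hold a match are shown before the values. RefSeq promoters (build GRCm38.p6) were matched for 33 of the 44 genes. The consensus kB motif of 10 bases, searched on both strands of the 250 bases before the start with overlapping matches counted, was present in 10 of the 33, or 30.3%, and in 2382 of all 32851 promoters, or 7.25%. The genes holding it were Tlr2, Tlr3, Irak1, Traf3, Nfkb2, Rel, Nfkbia, Nfkbie, Tnfaip3 and Tnip1. Each of the 33 genes counts once, by the start nearest the annotated one, whereas the 32851 can hold several starts of a gene. The 2 shares are therefore of unlike units. For Tlr3 and Nfkb2 the start used lay 700 and 417 bases from the annotated one. Of the feedback group, Nfkbib and Bcl3 held no match, and Nfkbiz was not matched to a promoter. The promoters below, given 5′ to 3′ with kB matches in capitals, are those of Nfkbia (chr12:55492648-55492897, minus strand), Nfkbie (chr17:45555450-45555699, plus strand) and Tnip1 (chr11:54962941-54963190, minus strand).
Nfkbia: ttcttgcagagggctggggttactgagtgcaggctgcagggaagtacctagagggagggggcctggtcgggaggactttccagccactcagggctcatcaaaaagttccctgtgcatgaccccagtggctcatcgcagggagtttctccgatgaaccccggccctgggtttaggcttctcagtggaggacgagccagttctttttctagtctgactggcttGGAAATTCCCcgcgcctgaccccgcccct
Nfkbie: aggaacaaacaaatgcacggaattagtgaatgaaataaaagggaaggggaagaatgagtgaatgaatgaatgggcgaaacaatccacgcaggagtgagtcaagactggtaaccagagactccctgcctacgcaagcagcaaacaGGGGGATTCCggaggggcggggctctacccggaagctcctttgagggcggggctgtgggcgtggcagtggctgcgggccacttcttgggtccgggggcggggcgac
Tnip1: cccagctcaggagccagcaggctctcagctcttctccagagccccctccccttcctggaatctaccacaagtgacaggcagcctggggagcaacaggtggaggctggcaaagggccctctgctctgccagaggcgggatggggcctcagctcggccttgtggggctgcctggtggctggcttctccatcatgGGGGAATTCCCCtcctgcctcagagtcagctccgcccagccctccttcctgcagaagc
In Nfkbia the match began 29 bases before the start, in Nfkbie 106 bases before it, and in Tnip1 3 overlapping matches began 58, 57 and 56 bases before it. Of the matched genes with a higher level in AF livers 5 of 14 held the motif, of those that did not pass the test 5 of 17, and of those with a lower level 0 of 2. A match is a description of the letters and not a measured binding site.

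Of the 44 genes, 20 were higher in AF livers (45.5%) and 4 were lower (9.09%) by edgeR's quasi-likelihood test at an adjusted p under 0.05, and 28 had an unadjusted p under 0.05. Among all genes tested, 39.8% passed, 22% higher and 17.8% lower, so a large part of the liver transcriptome differed between the groups. The lower count of the 44 was 2 without PF 2, PF 3 or PF 5, with upper-quartile scaling and with every gene of at least 1 count. In that order, 2123, 2167, 2157, 2161 and 2258 of all genes were then lower, against 2519 in the main fit. With libraries scaled by their totals alone, 27 of the 44 were higher and 2 lower, beside 6458 higher and 938 lower among all genes instead of 3116 and 2519. The median log2 fold change (AF over PF) of the 44 genes was 0.34, with a range of -0.89 to 2.06, against 0.04 for all genes. Every AF liver lay above every PF liver for 5 of the 44, Tlr13, Cd14, Tab1, Ikbkg and Tnip1, where 8.2% of all genes did so. Every AF liver lay below every PF liver for 1, Tirap, where 9.49% of all genes did so. The higher calls comprised 9 of the 14 receptors and co-receptors, 4 of the 12 adaptors and IRAK, TRAF and TAB genes, 1 of the 3 IKK subunits, 4 of the 5 NF-kB subunits and 2 of the 7 inhibitors and feedback genes. None of the 3 genes of the interferon regulatory factor (IRF) branch was among them. The lower calls were 1 adaptor, 2 IKK subunits and 1 feedback gene, and the steps were not tested against each other.

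**Figure D1:**
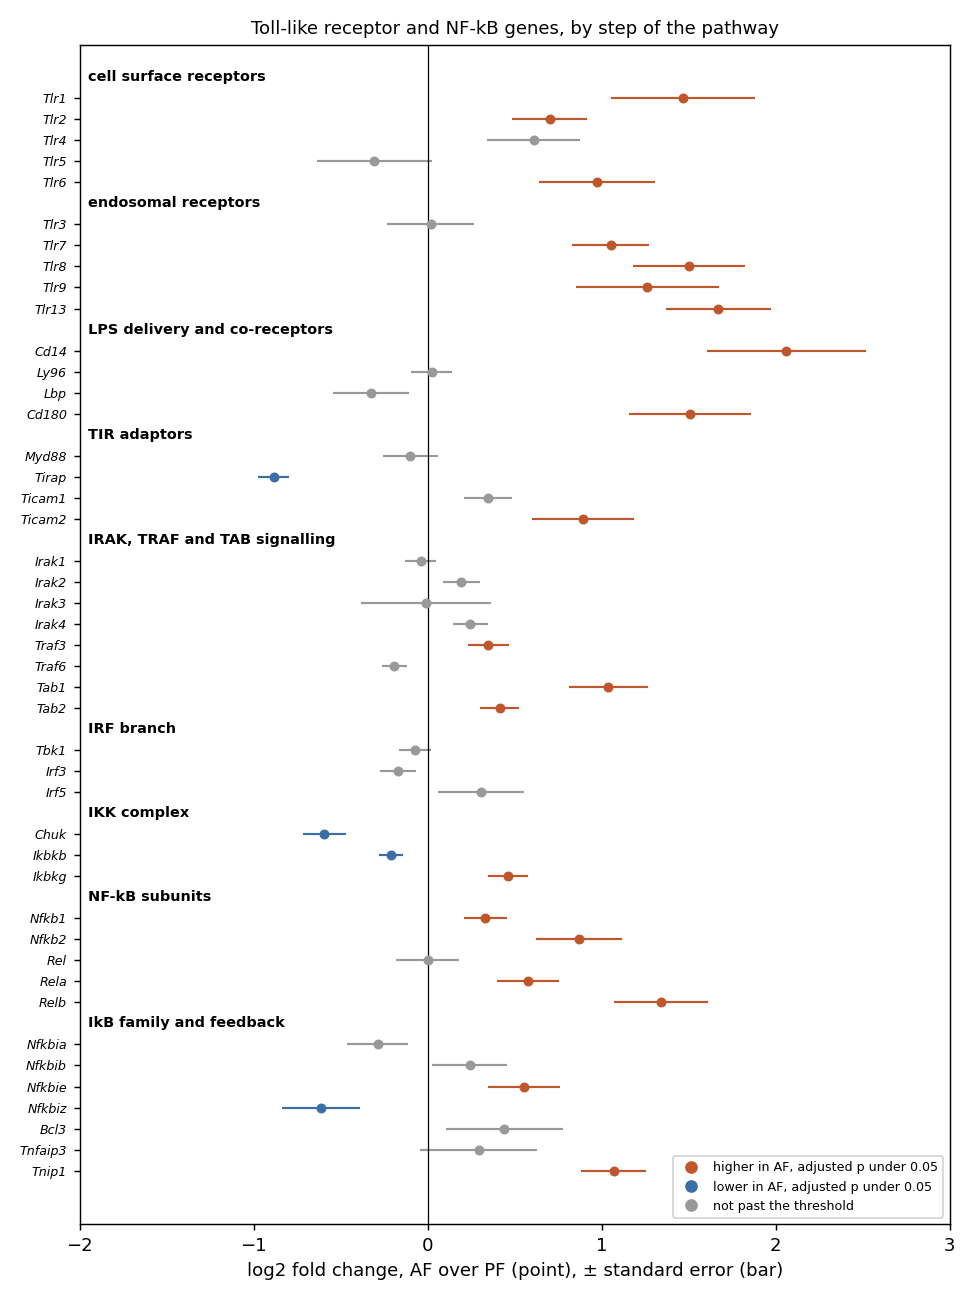
Log2 fold change of AF over PF livers (horizontal axis, point) with its standard error (bar) for each of the 44 genes, grouped by step of the pathway from the receptors at the top to the inhibitors and feedback genes at the bottom. Of the 10 TLRs, 7 are marked as higher in AF, Cd14 has the largest value (2.06) and Tirap the lowest (-0.89).

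The co-receptor Cd14, which hands LPS to TLR4, had the largest difference of the 44 genes. Cd14 lies on chromosome 18 at 36725067 to 36726798. Its level was 16.7, 4.80, 6.84, 10.7 and 16.3 CPM in PF 1 to PF 5, and its lowest, median and highest AF levels were 16.8, 35.8 and 104 CPM. All 7 AF livers were above the PF livers, although the lowest, AF 7, only slightly exceeded the highest, PF 1. The mean rose from 11.1 ± 5.41 (SD, n = 5) to 46.2 ± 29.99 CPM (n = 7), and AF exceeded PF by 2.06 ± 0.45 (standard error) on the log2 scale, with an adjusted p of 0.00372.

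Tlr4, Ly96 and Lbp, which also take part in LPS recognition, did not pass the test. Tlr4 itself (chromosome 4, 66827584 to 66930284) had 3.35, 4.58, 8.46, 7.83 and 6.47 CPM in the PF livers and 4.69, 9.25 and 12.6 CPM as the lowest, median and highest AF levels. The groups overlapped, with 5 of 7 AF livers above the highest PF liver. The log2 fold change of Tlr4 was 0.61, with a 95% interval of 0.09 to 1.13, and did not pass the test (adjusted p = 0.0833). Without AF 6, the AF liver with the lowest Tlr4 level, the log2 fold change was 0.72 and the adjusted p 0.0223. Tlr4 also passed with libraries scaled by their totals alone in place of TMM, with quality weights (limma-voom weighting each library by its quality) and with the replicate number as a block (adjusted p = 0.0205, 0.0216 and 0.0098). The block takes AF 6 and AF 7 out of the comparison, since PF has no livers with these numbers.

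Ly96 encodes MD-2, the subunit of the TLR4 complex that binds LPS (chromosome 1, 16688051 to 16709611). Its levels were 6.94, 5.72, 6.17, 6.72 and 8.19 CPM in PF livers and 6.12, 7.07 and 7.97 CPM as the lowest, median and highest of AF. No AF liver lay outside the PF range. The difference was 0.02 on the log2 scale with a 95% interval of -0.21 to 0.25 (adjusted p = 0.886). Lbp, the LPS-binding protein that hepatocytes secrete in the acute phase response, lies on chromosome 2 at 158306493 to 158332852. It had 229, 265, 333, 313 and 299.9 CPM in PF livers and 139, 219 and 389 CPM as the lowest, median and highest AF levels. Of the AF livers, 4 lay below the PF range and AF 6 lay above it. The log2 fold change of Lbp was -0.32 (95% interval -0.75 to 0.10, adjusted p = 0.248), and without AF 6 it was -0.50 with an adjusted p of 0.0286. Lbp also passed with quality weights and with the replicate block (adjusted p = 0.0156 and 0.0112), of which the block takes AF 6 out of the comparison as well.

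Cd180 encodes a TLR4-related surface protein without a signalling domain (chromosome 13, 102693558 to 102739629). Its level was 5.61, 5.63, 8.71, 7.12 and 10.3 CPM in the PF livers and 7.56, 23.5 and 39.3 CPM as the lowest, median and highest of AF. The 6 AF livers other than AF 6 lay above the PF range. Cd180 rose by 1.51 ± 0.35 on the log2 scale (adjusted p = 0.00488).

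Among the other surface receptors, TLR2 pairs with TLR1 or TLR6 to bind bacterial lipopeptides, and all 3 genes of this group rose. Tlr1 (chromosome 5, 64924679 to 64933563) had 2.26, 2.06, 3.96, 3.54 and 7.65 CPM in PF livers, and 4.69, 10.4 and 19.99 CPM as the lowest, median and highest AF levels. Only PF 5 among the PF livers reached the level of the lower AF livers. Tlr1 rose by 1.47 ± 0.41 on the log2 scale (adjusted p = 0.0131). Tlr2 rose from 20.4 ± 6.73 to 33.2 ± 7.12 CPM, with a log2 fold change of 0.70 and an adjusted p of 0.0197. Tlr6, next to Tlr1 on the chromosome, rose from 1.92 to 3.78 CPM (log2 fold change 0.97, adjusted p = 0.0335). This call for Tlr6 was lost when PF 1, PF 2, PF 3, AF 2, AF 3 or AF 4 was left out, with adjusted p of 0.0561 to 0.0806, and with limma-voom (adjusted p = 0.0558). Tlr5, the flagellin receptor, differed in the other direction without passing the test (11.7 CPM in PF, 9.51 in AF, log2 fold change -0.31, adjusted p = 0.479).

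The endosomal receptors had the highest median of any step, 1.26, and 4 of the 5 rose. Tlr13, a receptor for bacterial ribosomal RNA, lies on chromosome X at 106143204 to 106160493. The PF livers had 6.79, 7.69, 10.4, 11.5 and 13.6 CPM, and the lowest, median and highest AF levels were 15.7, 27.6 and 49.9 CPM. The groups did not overlap, and AF 1, AF 3 and AF 4 had the highest levels. Tlr13 rose by 1.67 ± 0.30 on the log2 scale with an adjusted p of 0.00121 (exact two-sided permutation p = 0.00253).

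Tlr7 and Tlr8, neighbouring receptors for single-stranded RNA on chromosome X (167304929 to 167330558 and 167242696 to 167264329), behaved alike. Tlr7 had 4.38, 7.32, 6.92, 11.6 and 9.003 CPM in PF livers and 10.7, 16.8 and 22.3 CPM as the lowest, median and highest AF levels. Tlr8 had 2.85, 4.26, 6.04, 5.90 and 5.75 CPM in PF livers and 4.99, 16.4 and 22.3 CPM as the lowest, median and highest AF levels. For both genes AF 3 was highest, and AF 6 was the only AF liver within the PF range. Tlr7 rose by 1.05 ± 0.22 on the log2 scale (adjusted p = 0.00283) and Tlr8 rose 2.83-fold, with a standard error of 0.32 on the log2 scale (adjusted p = 0.00311).

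Tlr9, the receptor for unmethylated CpG DNA (chromosome 9, 106222598 to 106226883), had the fewest reads of the 44 genes, 82 over all PF livers. Its PF levels were 0.394, 0.183, 1.084, 0.865 and 0.995 CPM, and the lowest, median and highest AF levels were 1.06, 1.35 and 3.13 CPM. Of the AF livers, 6 lay above the PF range. The log2 fold change was 1.26 ± 0.41 (adjusted p = 0.0269), and the call was lost without PF 1, PF 2 or AF 3 (adjusted p = 0.0634, 0.0521 and 0.0532). Tlr3, the receptor for double-stranded RNA and the one TLR here that does not use MyD88, had 10.1 CPM in PF and 10.3 CPM in AF livers (log2 fold change 0.02, 95% interval -0.47 to 0.51).

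**Figure D2:**
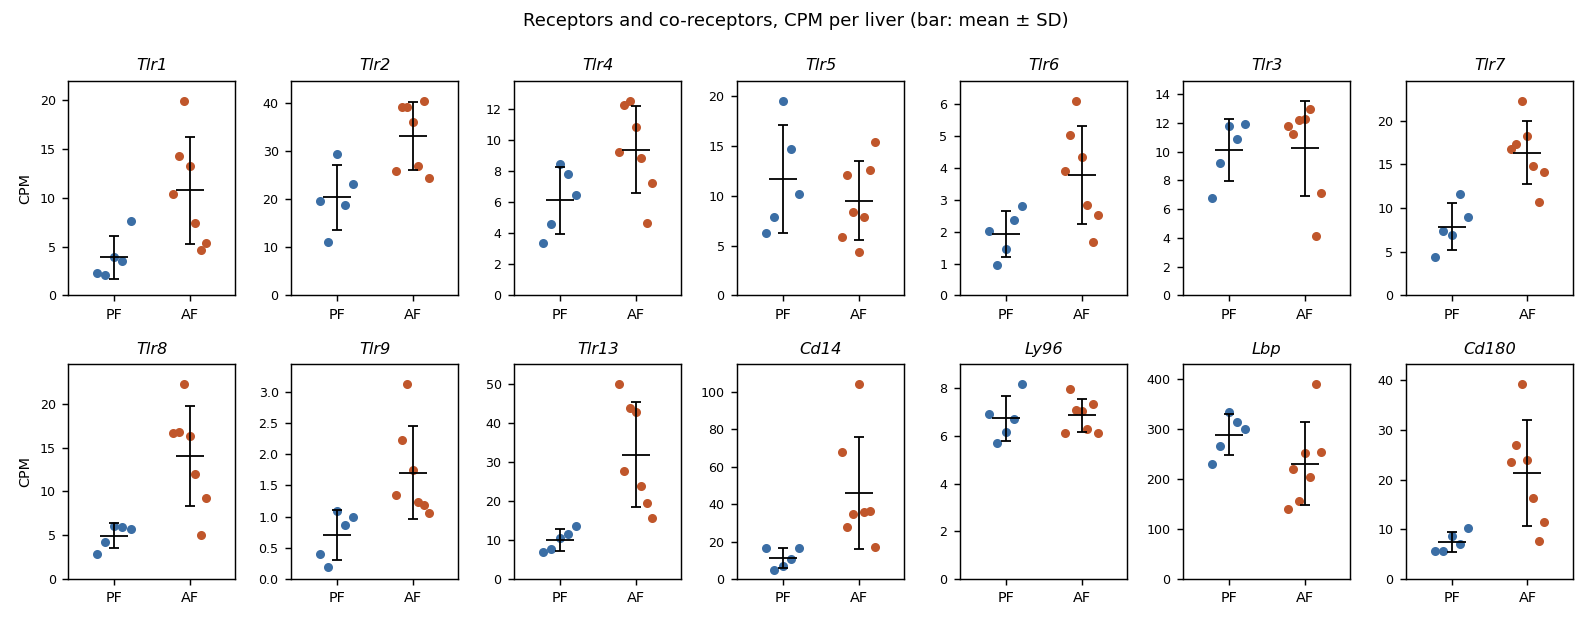
CPM in each liver (vertical axis, from 0) for the 10 TLRs and the 4 LPS delivery and co-receptor genes, with PF livers in blue and AF livers in orange and the bars at the mean ± SD. The groups are apart for Tlr13 and Cd14, nearly so for Tlr7, Tlr8 and Cd180, and lie over each other for Tlr3 and Ly96.

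Levels of different genes can be compared only per length of exon, and on that scale Tlr2 had the highest mean of the TLRs in both groups. Tlr2 had 6.78 ± 2.23 CPM per kilobase in PF and 11.03 ± 2.36 in AF livers. The sum of the 10 TLRs was 19.8 ± 5.38 CPM per kilobase in PF and 36.7 ± 8.54 in AF livers. In PF livers Tlr5, Tlr13, Tlr3 and Tlr7 followed at 2.45, 2.32, 1.94 and 1.92 CPM per kilobase, with SDs of 0.418 to 1.13 that exceed the steps between them. In AF livers Tlr13 came next at 7.40 ± 3.13 CPM per kilobase, before Tlr7 (3.998), Tlr8 (3.92) and Tlr1 (3.22), whose SDs of 0.888 to 1.64 also exceed the steps. Tlr2 was above Tlr13 in every liver except AF 1, where Tlr13 had 11.6 and Tlr2 8.63 CPM per kilobase. Tlr13 made up 11.8% of the TLR sum in PF and 19.6% in AF livers, while the share of Tlr5 was 12.1% in PF and 5.97% in AF and that of Tlr3 was 10.04% in PF and 5.37% in AF. Of the 10 TLRs, Tlr9 was lowest in both groups, at 0.203 and 0.490 CPM per kilobase. These shares restate the fold changes above and were not tested again.

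**Figure D3:**
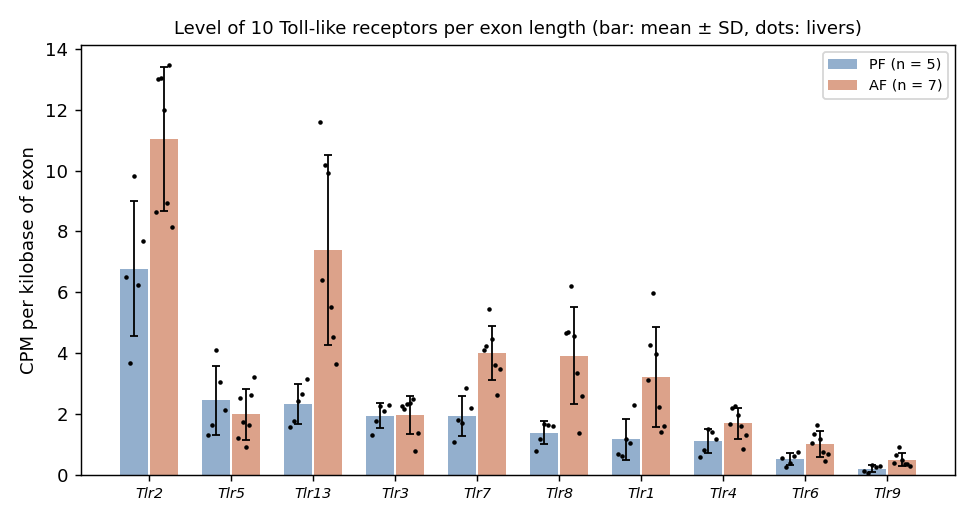
Level of each of the 10 TLRs per kilobase of exon (vertical axis, CPM per kilobase, bars at the mean, error bars ± SD, dots for single livers) in PF (blue) and AF livers (orange), ordered by the PF level. Tlr2 has the highest mean in both groups, and Tlr13 is in the third place in PF and next to Tlr2 in AF.

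Markers of several cell types differed between the groups along with the receptors. For comparison with the counts below, 22% of all genes were higher and 17.8% lower. Of 10 Kupffer cell markers 8 were higher in AF livers and none was lower, and their summed level was 866 to 1208 CPM in PF and 1300 to 3541 CPM in AF livers. Clec4f and Vsig4 were among the 8 (log2 fold change 0.49 and 0.73), and Timd4 was not (-0.01, adjusted p = 0.984). Of 10 markers of recruited monocytes or macrophages 6 were higher and none lower, with sums of 245 to 594 CPM in PF and 569 to 2245 CPM in AF livers. Trem2 and Gpnmb rose by 4.55 and 7.76 on the log2 scale, while the monocyte genes Ly6c2 and Ccr2 did not pass the test (adjusted p = 0.219 and 0.266). None of the 10 neutrophil markers and none of the 6 dendritic cell markers passed it, with neutrophil sums of 65.5 to 1164 CPM in PF and 49.6 to 230.4 in AF, and dendritic sums of 6.45 to 13.7 in PF and 8.45 to 14.5 in AF. Stellate cell markers were higher for 6 of 8 (sums of 218.9 to 526.3 CPM in PF and 443 to 1002 CPM in AF livers) and bile duct markers for all 4 tested (3.57 to 5.61 CPM and 5.55 to 47.4 CPM over 6 markers). Of sinusoidal endothelial markers 1 of 8 was higher (12.5%), a share below the 22% of all genes. Hepatocyte markers were lower for 2 of 7, B or plasma cell markers for 2 of 6 and T or NK cell markers for 1 of 9, where 17.8% of all genes were lower. Of 5 red blood cell markers Alas2 was lower (log2 fold change -1.71), and the 4 haemoglobin genes had values of 0.81 to 1.02 that did not pass the test (adjusted p = 0.0879 to 0.113). AF 3, which had the highest level of Tlr1, Tlr4, Tlr6, Tlr7, Tlr8, Tlr9 and Cd180, also had the highest Kupffer and recruited macrophage sums. Of its recruited sum of 2245 CPM, Lyz2 made up 1863 CPM. Among the AF livers, Trem2, Gpnmb, Cx3cr1, Itgax and Cd9 were highest in AF 1, and Lyz2 and Ccr2 in AF 3. Ly6c2 was highest in AF 2, and Itgam and Chil3 in AF 4. In whole liver, more cells of a type and more RNA per cell cannot be told apart, and the part of either in the receptor levels was not tested.

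At the adaptors, which carry the signal from the receptors, the 4 genes went different ways. Tirap, the adaptor that brings MyD88 to TLR2 and TLR4, had the smallest adjusted p of the 44 genes. It lies on chromosome 9 at 35184551 to 35200291. Its level was 40.1, 42.7, 36.5, 37.7 and 40.4 CPM in the PF livers and 18.2, 21.4 and 25.5 CPM as the lowest, median and highest of AF. All AF livers lay far below all PF livers, and the spread within each group was small. Tirap fell from 39.5 ± 2.42 to 21.4 ± 2.57 CPM, a log2 fold change of -0.89 ± 0.09 with an adjusted p of 2.23e-05. The exact two-sided permutation p was 0.00126, the smallest that the 792 splits of these libraries allow. Its exons lie opposite those of Gm39318 over 9.05% of their bases and opposite Srpr over 0.791%. Gm39318 was at 0.0447 CPM in PF and 0.0964 CPM in AF livers and Srpr at 331 and 265 CPM, and their part in the level of Tirap was not tested.

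Myd88, the adaptor shared by all TLRs here except Tlr3 (chromosome 9, 119335934 to 119341411), had 21.2, 22.1, 22.3, 18.3 and 20.3 CPM in PF livers. The lowest, median and highest AF levels were 12.7, 19.7 and 28.1 CPM, so AF livers spread to both sides of the PF range. The difference of -0.10 (95% interval -0.41 to 0.21) did not pass the test. Its exons share 11.3% of their bases with Acaa1a (67.5 CPM in PF and 55.9 CPM in AF livers) on the other strand, and whether reads were counted by strand is not given in the sources used here. Ticam1, the TRIF adaptor of TLR3 and TLR4, had 13.3 CPM in PF and 16.97 CPM in AF livers (log2 fold change 0.35, adjusted p = 0.0606), and it passed the test without AF 5, with upper-quartile scaling, on totals alone and with quality weights (adjusted p = 0.00386 to 0.0314). Ticam2, the adaptor that brings TRIF to TLR4, rose from 0.989 to 1.84 CPM (log2 fold change 0.89, adjusted p = 0.0272). That call was lost without PF 2, PF 4, PF 5, AF 2 or AF 3 (adjusted p = 0.0532 to 0.0679) and with limma-voom (adjusted p = 0.0638). Ticam2 shares 14.5% of its exon bases with Tmed7 on the same strand, which was at 132 CPM in PF and 110.3 CPM in AF livers, so the value of Ticam2 is uncertain.

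Below the adaptors, IRAK kinases and the ubiquitin ligase TRAF6 pass the signal to the kinase TAK1 and its partners TAB1 and TAB2. Tab1 (chromosome 15, 80133127 to 80161707) had 0.886, 1.46, 1.71, 1.42 and 1.86 CPM in PF livers and 1.89, 3.13 and 3.84 CPM as the lowest, median and highest AF levels. All AF livers lay above all PF livers, AF 2 by a narrow margin. Tab1 rose by 1.04 ± 0.23 on the log2 scale (adjusted p = 0.0034). Tab2, the ubiquitin-binding partner, rose from 91.6 to 122 CPM (log2 fold change 0.41, adjusted p = 0.0118). Traf3, which links TRIF to the IRF branch and restrains the non-canonical NF-kB pathway, rose from 15.3 to 19.5 CPM (log2 fold change 0.35, adjusted p = 0.0323). The call for Traf3 was lost without PF 2, PF 3, PF 5, AF 1, AF 2 or AF 4 (adjusted p = 0.0562 to 0.0807).

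None of the 4 IRAK genes passed the test. On totals alone the median of all genes was 0.40 instead of 0.04, and 6458 genes were called higher. Irak1, Irak2 and Irak4 passed there (log2 fold change 0.31, 0.56 and 0.61, adjusted p = 0.0273, 0.00622 and 0.00512), with Irak1 below that median. Irak1 and Irak4, the kinases at MyD88, had log2 fold changes of -0.04 and 0.25 (adjusted p = 0.742 and 0.071), and Irak4 also passed without AF 5, with upper-quartile scaling and with quality weights (adjusted p = 0.0258, 0.0345 and 0.0126). Exons of Irak4 lie opposite Twf1 (78.9 CPM in PF and 79.1 CPM in AF livers) over 7.87% of their bases. Irak2 had a value of 0.19 (adjusted p = 0.163). Irak3, the inhibitory member known as IRAK-M, had a value of -0.01 with a wide 95% interval of -0.74 to 0.72, and 5.22% of its exon bases lie opposite Tmbim4 (69.7 CPM in PF and 71.2 CPM in AF livers). Its levels fell into a low and a high set within both groups, with PF 2 at 6.54 CPM against 16.2 to 18.6 in the other PF livers, and AF 1, AF 5 and AF 7 at 6.12 to 8.22 against 18.4 to 23.9 CPM in the other AF livers. Traf6 was at 27.3 CPM in PF and 23.96 CPM in AF livers (log2 fold change -0.19, adjusted p = 0.0553), and it passed the test without PF 1, AF 2, AF 5 or AF 6 (adjusted p = 0.0446, 0.0474, 0.0364 and 0.0487). Traf6 also passed with RLE scaling, DESeq2 and quality weights (adjusted p = 0.0357, 0.0172 and 0.00496), and turned to 0.17 on totals alone (adjusted p = 0.258). In the IRF branch, which leads to type I interferon, the kinase Tbk1 and the transcription factors Irf3 and Irf5 had log2 fold changes of -0.07, -0.17 and 0.31 and adjusted p of 0.536, 0.198 and 0.337. Tbk1 turned to 0.28 on totals alone (adjusted p = 0.0443), and Irf5 passed with quality weights (adjusted p = 0.0185). Irf5 shares 14.1% of its exon bases with Tnpo3 on the other strand, which was at 72.6 CPM in PF and 65.5 CPM in AF livers, so the value of Irf5 is uncertain.

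The 3 subunits of the IKK complex all passed the test, in opposite directions. Ikbkg encodes NEMO, the regulatory subunit (chromosome X, 74393290 to 74453854). It had 88.5, 88.9, 79.8, 75.3 and 80.7 CPM in PF livers and 94.8, 106 and 142 CPM as the lowest, median and highest AF levels. All AF livers were above the PF range, and AF 5 and AF 6 were highest. Ikbkg rose by 0.46 ± 0.12 on the log2 scale (adjusted p = 0.00739), and 5.15% of its exon bases lie opposite G6pdx, which was at 17.02 CPM in PF and 22 CPM in AF livers. Chuk, the kinase IKK alpha, fell from 177 ± 21.5 to 117 ± 18.9 CPM (log2 fold change -0.59 ± 0.12, adjusted p = 0.00267), and only AF 6 among the AF livers reached the PF range. Ikbkb, the kinase IKK beta that serves the TLR pathway, had 51.1 CPM in PF and 44.1 CPM in AF livers. Its log2 fold change of -0.21 (adjusted p = 0.028) turned to 0.16 (adjusted p = 0.317) when libraries were scaled by their totals alone. The call for Ikbkb was also lost without PF 2, PF 3, PF 4 or PF 5 (adjusted p = 0.0503 to 0.0612), and with upper-quartile scaling, every gene of at least 1 count and the replicate block (adjusted p = 0.0785 to 0.113).

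Within a liver the balance of these subunits does not depend on how libraries are scaled. It restates the differences of Chuk and Ikbkg given above and was not tested. Per kilobase of exon, Chuk made up 72.8% ± 3.45 of the sum of the 3 subunits in PF and 58.4% ± 3.58 in AF livers. The ranges did not overlap, at 67.4 to 75.7% in PF and 52.6 to 63.3% in AF. The share of Ikbkg was 21.6% ± 3.12 in PF and 35.7% ± 3.62 in AF livers, again without overlap (18.9 to 26.4% and 30.8 to 42.4%). Ikbkb had the smallest share in both groups, 5.65% in PF and 5.99% in AF livers. The size of all these shares depends on the merged exon lengths used, 5087 bases for Chuk, 19078 for Ikbkb and 8110 for Ikbkg. By CPM alone Ikbkb was also lowest, with means of 51.1 in PF and 44.1 in AF livers. Chuk was then at 177 and 117 CPM, and Ikbkg at 82.6 and 114 CPM.

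**Figure D4:**
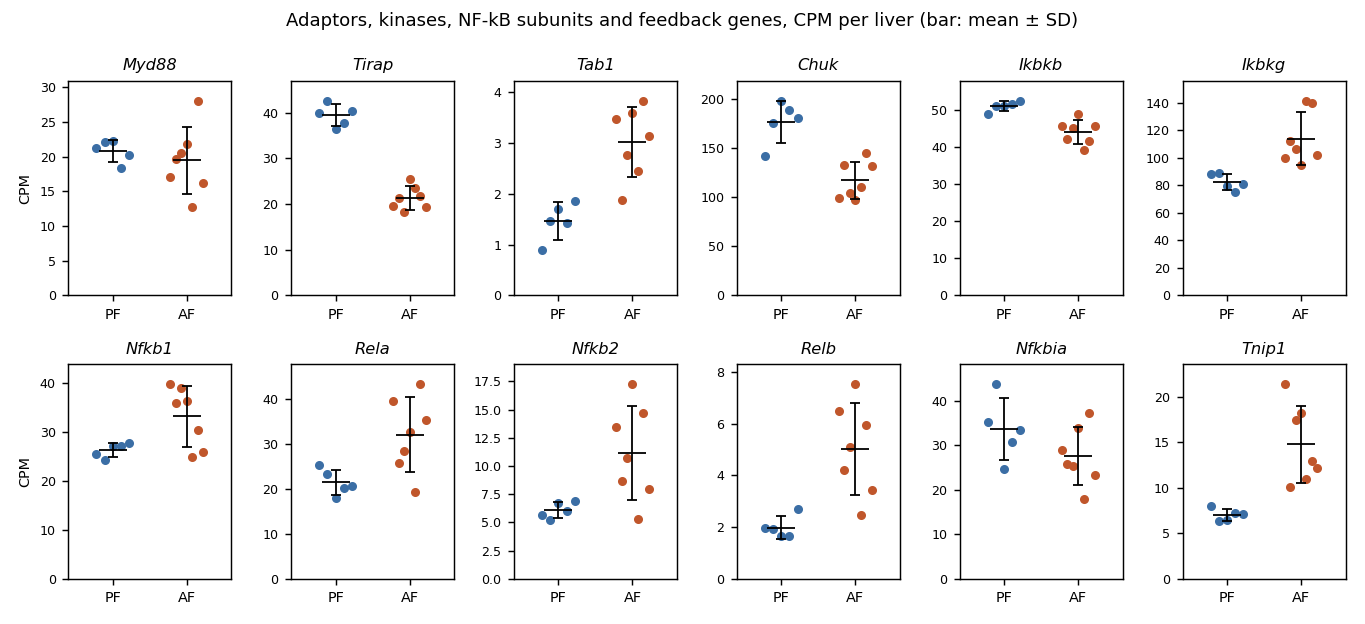
CPM in each liver (vertical axis, from 0) for 12 genes from the adaptors to the inhibitors, with PF livers in blue and AF livers in orange and the bars at the mean ± SD. Tirap lies lower in all AF livers, Tab1, Ikbkg and Tnip1 lie higher in all of them, and Myd88 and Nfkbia overlap.

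Of the 5 NF-kB subunits, 4 passed the test as higher and 1, Rel, did not pass, and of the 4 Nfkb1 was called under only 7 of 20 alternatives. Relb is the partner of the Nfkb2 product in the non-canonical pathway (chromosome 7, 19606217 to 19629438). It had 1.97, 1.92, 1.67, 1.65 and 2.72 CPM in PF livers and 2.45, 5.10 and 7.54 CPM as the lowest, median and highest AF levels. AF 5 was the only AF liver within the PF range. The log2 fold change of Relb was 1.34 ± 0.27 (adjusted p = 0.00219), and Nfkb2 itself rose from 6.10 to 11.2 CPM (log2 fold change 0.87, adjusted p = 0.0145). With limma-voom Nfkb2 missed the threshold (log2 fold change 0.78, adjusted p = 0.054). Exons of Nfkb2 lie opposite those of AC114539.1 over 11.6% of their bases and opposite Psd over 6.52%.

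The canonical dimer is made of the products of Rela and Nfkb1. Rela (chromosome 19, 5637483 to 5648130) had 25.3, 23.2, 18.0, 20.3 and 20.7 CPM in PF livers and 19.2, 32.6 and 43.4 CPM as the lowest, median and highest AF levels. Of the AF livers, 6 were above the PF range and AF 5 was within it. Rela rose by 0.58 ± 0.18 on the log2 scale (adjusted p = 0.0198), a call lost without PF 3 (adjusted p = 0.0548). Nfkb1 (chromosome 3, 135584655 to 135691547) had 25.5, 24.3, 27.1, 27.2 and 27.9 CPM in PF livers and 24.9, 35.9 and 39.9 CPM as the lowest, median and highest AF levels. Of the AF livers, 5 lay above the PF range. The log2 fold change of Nfkb1 was 0.33 ± 0.12 and its adjusted p of 0.0483 was close to the threshold. Leaving out any PF liver, or AF 1, AF 2, AF 3 or AF 4, put it at 0.0707 to 0.108, and RLE scaling, DESeq2, limma-voom and the test of every gene with at least 1 count put it at 0.0584 to 0.0734. Rel had 10.7 CPM in both groups, with a 95% interval of the log2 fold change of -0.35 to 0.35. Per kilobase of exon Rela had the largest share, with 56.0% of the sum of the 5 in PF and 56.7% in AF livers. This order depends on the lengths used, the merged annotated exons of a gene, at 3072 bases for Rela and 12061 for Nfkb1. By CPM alone Nfkb1 had a mean of 26.4 in PF and 33.2 in AF livers, and Rela 21.5 and 32.1.

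Among the inhibitors and feedback genes, Tnip1 rose most. Tnip1 encodes ABIN-1, a ubiquitin-binding partner of the A20 protein that restrains NF-kB (chromosome 11, 54910785 to 54962917), and its promoter with 3 overlapping kB matches is printed above. It had 7.97, 6.31, 6.50, 7.28 and 7.10 CPM in PF livers and 10.1, 12.96 and 21.4 CPM as the lowest, median and highest AF levels. All AF livers lay above all PF livers. Tnip1 rose by 1.07 ± 0.19 on the log2 scale with an adjusted p of 9.97e-04 (exact two-sided permutation p = 0.00253).

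Nfkbia, which encodes IkB alpha, the inhibitor that NF-kB restores after each round of activation, also holds a kB match but did not pass the test. It lies on chromosome 12 at 55489410 to 55492647. Its levels were 35.3, 43.8, 24.7, 30.7 and 33.4 CPM in PF livers and 18.0, 25.8 and 37.3 CPM as the lowest, median and highest AF levels. The groups overlapped over most of their range, and the log2 fold change was -0.29 (95% interval -0.63 to 0.05, adjusted p = 0.202). Tnfaip3, which encodes A20, had 20 CPM in PF and 24.5 CPM in AF livers (log2 fold change 0.29, adjusted p = 0.506), and its AF levels ran from 8.47 to 39.0 CPM.

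Nfkbie, the gene of IkB epsilon, rose from 3.88 to 5.70 CPM (log2 fold change 0.56, adjusted p = 0.0469), and Nfkbiz, the nuclear co-activator IkB zeta, fell from 30.8 to 20.1 CPM (log2 fold change -0.61, adjusted p = 0.0447). Both calls depended on the processing, with Nfkbie called under 9 and Nfkbiz under 8 of 20 alternatives. That of Nfkbie was lost with RLE scaling, limma-voom and every gene of at least 1 count (adjusted p = 0.0547 to 0.0635), and without any of PF 1 to PF 4 or AF 1 to AF 4 (adjusted p = 0.0725 to 0.115). That of Nfkbiz was lost with upper-quartile scaling, totals alone, every gene of at least 1 count and the replicate block (adjusted p = 0.0569 to 0.377), and without PF 2, PF 3, PF 5, AF 2, AF 3, AF 4, AF 5 or AF 7 (adjusted p = 0.0517 to 0.139). Nfkbib and Bcl3, further members of the IkB family, had log2 fold changes of 0.24 and 0.44 that did not pass the test (adjusted p = 0.387 and 0.312), although Nfkbib passed on totals alone (adjusted p = 0.0405). Nfkbib lies opposite Ccer2 (0 CPM in PF and 0.0135 CPM in AF livers) over 14.5% of its exon bases and opposite Sirt2 (34.1 and 32.7 CPM) over 1.94%.

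The AF livers differed among themselves in which part of the pathway was high. AF 3 was the highest AF liver for 10 of the 44 genes (22.7%, against 11.03% of 12489 genes with a mean of at least 1 CPM), of which 7 were TLRs or Cd180. AF 6 was the highest for 15 (34.1%, against 22.7% of all genes), among them Rela, Nfkbia, Nfkbib, Nfkbiz, Bcl3, Tnfaip3, Myd88 and Lbp. It was the lowest AF liver for 11, among them Tlr1, Tlr3, Tlr4, Tlr6, Tlr7, Tlr8 and Cd180, a share of 25% that is near the 25.9% of all genes. AF 5 was the lowest for 15 (34.1%, against 15.03%), including all 5 NF-kB subunits, Nfkbia, Nfkbib, Bcl3 and Tnfaip3. AF 4 was the highest for 7 (15.9%, against 6.35%), while AF 1, AF 2, AF 5 and AF 7 were highest at shares below those of all genes. In PF livers, PF 5 was highest for 16 of the genes (36.4%, against 16.6% of all genes) and PF 3 for 14 (31.8%, against 18.3%). PF 1 was lowest for 17 (38.6%, against 25.8%) and PF 2 for 15 (34.1%, against 23.1%). The remaining PF livers lay below the share of all genes in each count. Genes of 1 liver share a library, so these counts describe single livers and no test was made on them.

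**Figure D5:**
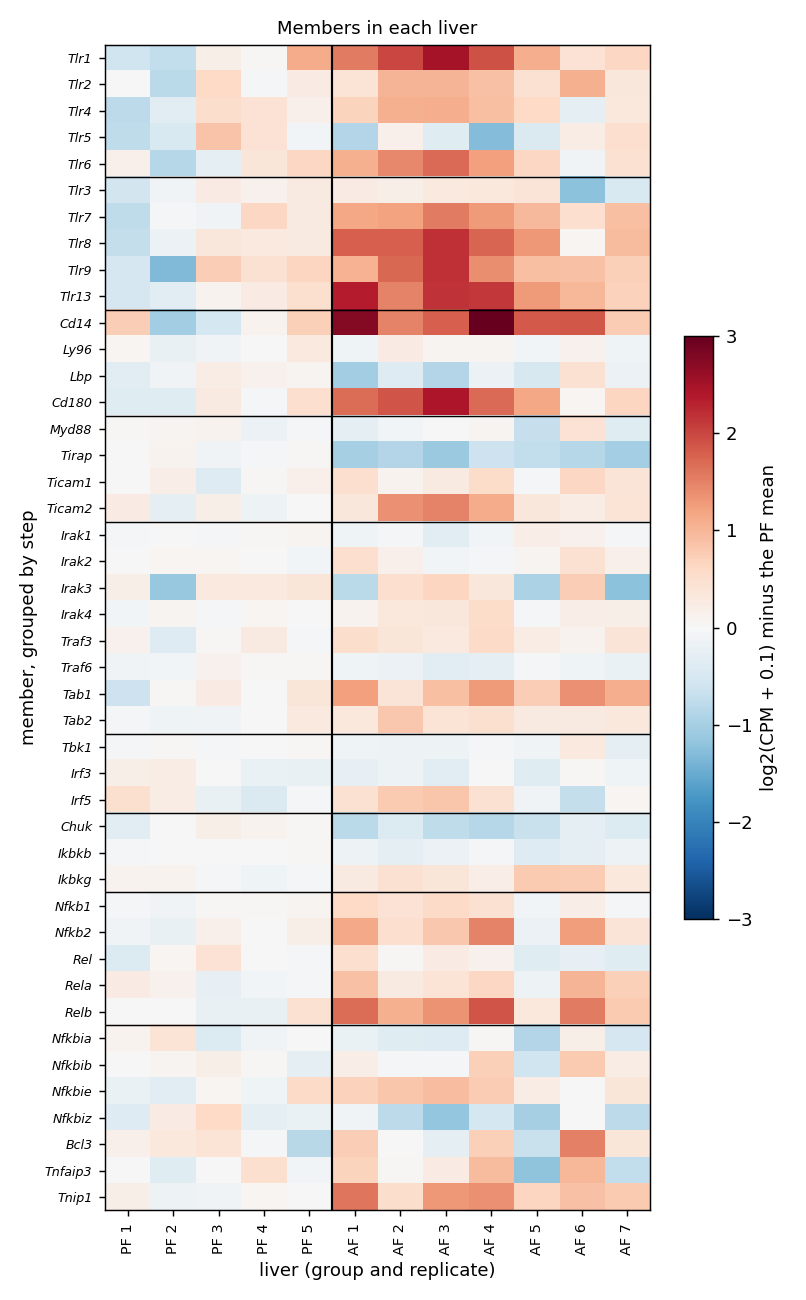
Level of each of the 44 genes (vertical axis, grouped by step) in each of the 12 livers (horizontal axis), as log2(CPM + 0.1) minus the mean of the PF livers, with red above and blue below the PF mean. Tlr1, Tlr4, Tlr6, Tlr7, Tlr8, Tlr9 and Cd180 are darkest in AF 3, AF 6 is pale for Tlr7, Tlr8 and Cd180 but red for Rela, Bcl3 and Tnfaip3, and Tirap is blue in all 7 AF livers.

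Further genes of the pathway outside the 44 were read from the same test. Of 26 other TLR pathway genes, 5 were higher (19.2%) and 4 lower (15.4%) in AF livers, shares near the 22% and 17.8% of all genes, with a median log2 fold change of 0.01. Among those that passed the test, the largest rises were of Cd36 (1.93, adjusted p = 2.91e-04), a lipid scavenger receptor that also assists TLR2, of Unc93b1 (0.61, adjusted p = 0.0114), the chaperone that takes TLRs to endosomes, and of Traf2 (0.51, adjusted p = 0.00524). The largest falls among those that passed were of the ubiquitin ligase Peli1 (-0.52, adjusted p = 0.00973), of Tollip (-0.42, adjusted p = 0.012), which restrains TLR signalling, and of Tank (-0.29, adjusted p = 0.0481), a scaffold at TBK1. Of 25 other NF-kB pathway genes, 7 were higher (28%) and 3 lower (12%), against the same 22% and 17.8%, with a median of 0.22. Tnip3, a relative of Tnip1, rose by 3.18 ± 0.97 (adjusted p = 0.02) from a level near the floor, since PF 2 had no read of it, which allows up to 0.137 CPM. Pdlim2, which promotes RELA degradation, rose by 1.59 (adjusted p = 0.00145) and Tnfaip2 by 1.33 (adjusted p = 0.00336). Those that fell were Cyld (-0.49, adjusted p = 0.00127), a deubiquitinase that restrains IKK, the ubiquitin ligase Itch (-0.48, adjusted p = 0.00165) and Nlrc5 (-0.37, adjusted p = 0.048).

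Of 21 genes tested that are known as NF-kB targets, 11 were higher in AF livers (52.4%, against 22% of all genes) and 1 was lower (4.76%, against 17.8%), with a median log2 fold change of 0.60. The Kupffer, recruited macrophage and stellate cell markers given above were also higher, and their part in these levels was not tested. The chemokine Ccl4 rose by 2.39 (adjusted p = 0.00267), the cytokine Tnf by 2.19 (adjusted p = 0.00138) and the survival gene Bcl2a1b by 2.17 (adjusted p = 0.00413). Their levels stayed low, with Tnf at 0.379 CPM in PF and 1.74 CPM in AF livers. The gene that fell was Cflar (-0.58, adjusted p = 0.0055), an inhibitor of caspase activation. Il6, Il12b and Ptgs2 had too few reads to be tested.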

How the data were processed

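Whole liver mRNA was enriched with oligo(dT) and sequenced in 5 PF and 7 AF libraries. The table that the authors deposited holds raw read counts for Ensembl gene IDs, and per the labels the library kit was stranded. The submitters' processing notes name FastQC 0.10.1, TopHat2 2.0.13, HTSeq 0.10.0 and build GRCm38. The annotation and strand setting of the counting are not given in the sources used here. The study's own test (Cuffdiff2) works on alignments and was not repeated.

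Symbols, coordinates and exon lengths were taken from GENCODE M21. The fit used edgeR 4.0.16 in R 4.3.3, with TMM factors, the filterByExpr filter and the quasi-likelihood test of the group term alone. Adjustment was by Benjamini-Hochberg over 14168 genes at a threshold of 0.05. CPM values use the TMM factors. Levels per kilobase divide CPM by the merged length of all annotated exons of a gene, which can exceed the length of the transcripts present. Intervals of 95% take the standard error times a normal quantile. They can be narrower than the quasi-likelihood test implies. Single genes were also tested by an exact two-sided permutation test of mean log2(CPM + 0.1) over 792 splits. Floors cover counting error only, since reads carry no molecular identifiers. Repeated deposits were looked for in the 31 within-group pairs of libraries, and none was found.

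The values of all PF livers and the lowest, median and highest AF values are given for genes past the threshold whose groups did not overlap or whose log2 fold change was at least 1 in size, and for Tlr4, Cd14, Ly96, Lbp, Myd88, Nfkb1, Rela and Nfkbia. From each further pathway list, up to 3 genes per direction are named by size. The 44 genes and the lists were chosen with earlier results of these data known. Alternatives were RLE, upper-quartile and total scaling, no filter, DESeq2 1.42.0, limma-voom (limma 3.58.1) with and without sample quality weights, a replicate block, and leaving out each library. The statistics were tested on simulated data.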

Additional observations from a re-analysis of the deposited data

Results flagged for a closer look

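Within groups, the highest or lowest liver lay far from the nearest other one in 4 of the 88 sets of values of the 44 genes, where chance gives about 4.4. Irak3 was lowest in PF 2 at 6.54 CPM, with the next PF liver at 16.2 CPM. Tab2 was highest in PF 5 at 112 CPM among PF livers, with the next at 91.0 CPM, and highest in AF 2 at 159 CPM among AF livers, with the next at 127 CPM. Tbk1 was highest in AF 6 at 43.7 CPM, with the next AF liver at 34.03 CPM. Tab2 remained higher in AF without PF 5, with a log2 fold change of 0.49, and without AF 2, with one of 0.32.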

How the results depend on the processing

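Of the 44 genes, 14 were called in the same direction under all 20 alternatives, 12 higher (Tlr1, Tlr2, Tlr7, Tlr8, Tlr13, Cd14, Cd180, Tab1, Tab2, Ikbkg, Relb and Tnip1) and 2 lower (Tirap and Chuk). Of the 880 values of single genes, 746 kept direction and side of the threshold, 67 lost the call, 25 gained one and 42 turned direction. The 42 belong to 11 genes, and in 39 the gene passed the threshold on neither side. With libraries scaled by their totals alone, 27 of the 44 genes were higher and 2 lower, and of all genes 6458 were higher and 938 lower. The median of all genes was then 0.40 instead of 0.04, and 29 of the 44 genes lay above it instead of 28. On totals 9 log2 fold changes turned, of Irak1, Tbk1 and Ikbkb to 0.31, 0.28 and 0.16, and of Myd88, Irak3, Traf6, Irf3, Rel and Nfkbia to 0.25, 0.32, 0.17, 0.19, 0.39 and 0.0786. The differences in the exact permutation test turned for the same 9 genes in that order (p = 0.0139, 0.0328, 0.325, 0.201, 0.605, 0.197, 0.129, 0.229 and 0.779) and for Tlr5 (p = 0.881) and Tlr3 (p = 0.462). Genes near 0 turned elsewhere as well. Upper-quartile scaling put Irak1, Irak3 and Rel at 0.0135, 0.0432 and 0.0572, and testing every gene of at least 1 count put Irak3 and Rel at 0.0045 and 0.0089. Tlr3 was at -0.0028 with RLE, -0.0031 with DESeq2 and -0.0285 with limma-voom, and Rel was at 0.0333 with quality weights and 0.108 with the replicate block. Without single livers Tlr3 ranged from -0.10 to 0.15, Ly96 from -0.0368 to 0.0991, Irak1 from -0.0786 to 0.0086, Irak3 from -0.20 to 0.13 and Rel from -0.0975 to 0.12. The count of lower genes was also 2 with upper-quartile scaling and with every gene of at least 1 count (2161 and 2258 of all genes). Higher genes numbered 15 with limma-voom and 24 with quality weights, which gave 6 lower, and 19 with DESeq2, with 5 lower. Of all genes, limma-voom called 2618 higher and 2580 lower, quality weights 3972 and 3541, and DESeq2 3294 and 2929. Leaving out single livers gave 14 to 22 higher and 2 to 6 lower genes, with 2 lower without PF 2, PF 3 or PF 5, and 2519 to 3574 higher and 2119 to 2923 lower among all genes. Replicate numbers did not pair the livers, since deviations of same-numbered livers correlated at -0.0760 to 0.115 and 1 of 5 PF livers correlated best with its own number. The replicate block gave 21 higher and 3 lower genes (3395 and 2940 of all), losing Ikbkb and Nfkbiz and gaining Tlr4 and Lbp. As PF has no livers numbered 6 and 7, the block takes AF 6 and AF 7 out of the comparison. Its gain of Tlr4 and Lbp is therefore not separate from the fit without AF 6, which gained both. Except where named, the cause of these shifts was not tested. Of the 44 genes Tlr9 had the fewest reads, 82 over the PF livers.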
